A study of Homo sapiens with 10 samples.

Results

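BRD9 was mapped by CUT&RUN in G401 rhabdoid tumour cells. A set of 1758 genomic regions carried a BRD9 peak in every BRD9 library and overlapped no called SMARCB1 region. They were chosen from the peak lists themselves. Overlapping peaks (1 bp or more) of the 6 BRD9 lists were merged on chromosomes 1 to 22 and X, which gave 116495 merged regions. Of these, 5086 held a peak of all 6 lists. The 1758 constant regions without SMARCB1 are those that overlapped none of the 87641 SMARCB1 regions, which are merged peaks held by both SMARCB1 lists. The other 3328 constant regions overlapped a SMARCB1 region and are used for comparison.

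CUT&RUN uses an antibody to tether a nuclease to its target, so that only the DNA around the target is cut loose and sequenced. G401 is an established human rhabdoid tumour line, labelled as lacking both copies of SMARCB1, and all groups share that genotype. Doxycycline induced either GFP, the control, or SMARCB1 (labelled SB1). The labels give no dose and no duration of the induction, and they do not say whether replicates are separate cultures, so the tests measure the spread between libraries. BRD9 was profiled with a rabbit antibody in 3 libraries of GFP-induced and 3 of SMARCB1-induced cells, and SMARCB1 with a rabbit monoclonal antibody in 2 libraries of SMARCB1-induced cells. SMARCB1 was also profiled in 1 library of GFP-induced cells, which was not analysed here. The absence of SMARCB1 at a region therefore refers here to calls in cells that express it from the induced construct.

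SWI/SNF complexes use ATP to move or eject nucleosomes and exist in several assemblies. SMARCB1 is a core subunit of the canonical BAF and PBAF assemblies. BRD9, a bromodomain protein, belongs to the non-canonical assembly, which is built without SMARCB1, and rhabdoid lines are known to depend on BRD9. Sequence beside human centromeres, which recurs below, is rich in satellite and duplicated repeats.

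The BRD9 libraries held 10.1 to 13.9 M reads and the SMARCB1 libraries 64.2 and 59.7 M. Every BRD9 list was called against 1 control library of 23.1 M reads, which the files do not name, so the 6 lists share whatever that control contains. The SMARCB1 lists had another control, of 49.6 M reads. A region without SMARCB1 is thus one with no SMARCB1 call over that other control, and BRD9 and SMARCB1 calls rest on unlike backgrounds. GFP replicate 2 stood apart from GFP replicates 1 and 3. Inside the constant regions without SMARCB1, the bases covered by GFP replicates 1 and 3 had a Jaccard index (bases covered by both lists over bases covered by either) of 0.730. GFP replicate 2 reached 0.545 and 0.554 with them. SMARCB1-induced replicate 1 was closer to GFP replicates 1 and 3, at 0.656 and 0.653, than GFP replicate 2 was. With SMARCB1-induced replicates 2 and 3, GFP replicate 2 had 0.533 and 0.550. GFP replicate 1 had 0.520 and 0.533 with them, and GFP replicate 3 had 0.540 and 0.552. The comparisons of list medians are therefore also given without GFP replicate 2 and, beside that, without GFP replicate 1. The counts of called regions are given without each list in turn.

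The constant regions without SMARCB1 had wider merged spans, more often split into several peaks, than those with SMARCB1. Their merged span had a median of 2942 bp (quartiles 1751 and 4703 bp) and ranged from 397 to 66025 bp, and 122 of them spanned 10 kb or more. Constant regions with SMARCB1 had a median span of 2190 bp, and 47 of the 3328 spanned 10 kb or more. In single lists, 49.0 to 56.9% of the regions without SMARCB1 were covered by 1 peak, against 62.0 to 75.7% of those with SMARCB1. The 122 widest regions held 44.8 to 49.6% of all BRD9 reads that fell in the set, depending on the list. Because a peak in all 6 lists was required, strong and wide sites are favoured. Regions just outside the rule, with a peak in 5 of the 6 lists and no SMARCB1 region, numbered 1148 and had a median covered width of 813 bp and a median density of 3.14 RPKM (reads per kilobase covered and M reads of the library). The 1758 members, which all stand at the rule's limit of 6 lists, had 1549.5 bp and 3.66 RPKM. The list most often missing from those 1148 was SMARCB1-induced replicate 2, in 448 regions, and the least often missing was GFP replicate 1, in 43.

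The members that ranked highest by the authors' score, over all 6 lists, were also dense in the control, and 4 of the 5 highest lay within 2 Mb of the widest peak-free stretch of their chromosome. The best mean rank, 8.17, belonged to chromosome 4 from 49133497 to 49140601, in coordinates of hg19, a build that the BRD9 lists do not name but that their chromosome ends fit. Its BRD9 density was 26.0, 24.1 and 24.2 RPKM in the GFP-induced libraries and 22.5, 21.5 and 17.1 RPKM in the SMARCB1-induced ones. All 3 GFP values were above the 3 others, but the difference did not pass the test over all regions (edgeR, log2 difference -0.28, SE 0.15, adjusted p = 0.35). The control library had a mean of 5.66 RPKM over the same intervals. A neighbour, from 49118077 to 49129634 on the same chromosome, had 37.5, 35.4 and 31.8 RPKM after GFP induction and 30.7, 30.2 and 25.2 RPKM after SMARCB1 induction, with a control mean of 7.51 RPKM.

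The second by rank, chromosome 8 from 43816026 to 43838927, ended where the widest peak-free stretch of its chromosome began. It was covered over 22235 ± 883 bp (SD, n = 3) after GFP induction and 21599 ± 327 bp (SD, n = 3) after SMARCB1 induction. Its density was 46.6, 40.3 and 45.3 RPKM in the GFP-induced libraries against 36.5, 36.9 and 31.5 RPKM, and the control had 7.20 RPKM. The groups did not overlap in density, and the test was not passed (edgeR, adjusted p = 0.24). Chromosome 11 from 51576301 to 51579845 also lay beside such a stretch, with 16.7, 19.2 and 16.4 RPKM against 14.2, 19.3 and 15.1 RPKM, so there the groups overlapped. Chromosome 4 from 68264126 to 68266885 was the exception in place, 15.6 Mb from the stretch. It had 68.8, 45.4 and 67.1 RPKM after GFP induction, 55.1, 57.0 and 47.0 RPKM after SMARCB1 induction, and a control mean of 14.2 RPKM.

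The 5 widest members were other regions than the 5 best ranked, and the 2 widest had a control density below that of an even spread of its reads. Chromosome 19 from 24511226 to 24577251 was covered over 64319, 47541 and 63239 bp in the GFP-induced libraries and 60144, 45213 and 48497 bp in the SMARCB1-induced ones. The coverage came in 7, 36 and 10 separate peaks after GFP induction and in 18, 35 and 28 after SMARCB1 induction. Its density was 5.74, 3.29 and 4.94 RPKM against 3.83, 3.51 and 3.19 RPKM, and GFP replicate 2 lay among the SMARCB1-induced values in both measures. The control density was 0.312 RPKM. Chromosome 16 from 32525075 to 32572376 had the same pattern, with 5.44, 3.23 and 5.39 RPKM against 3.70, 3.51 and 2.94 RPKM over a control of 0.309 RPKM. The remaining 3 were on chromosome 21, from 11052431 to 11096958, from 10697826 to 10737308 and from 10772645 to 10812641. They were covered over 35575 to 42098 bp in each list, and their control means were 0.825, 1.57 and 1.93 RPKM.

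**Figure D1:**
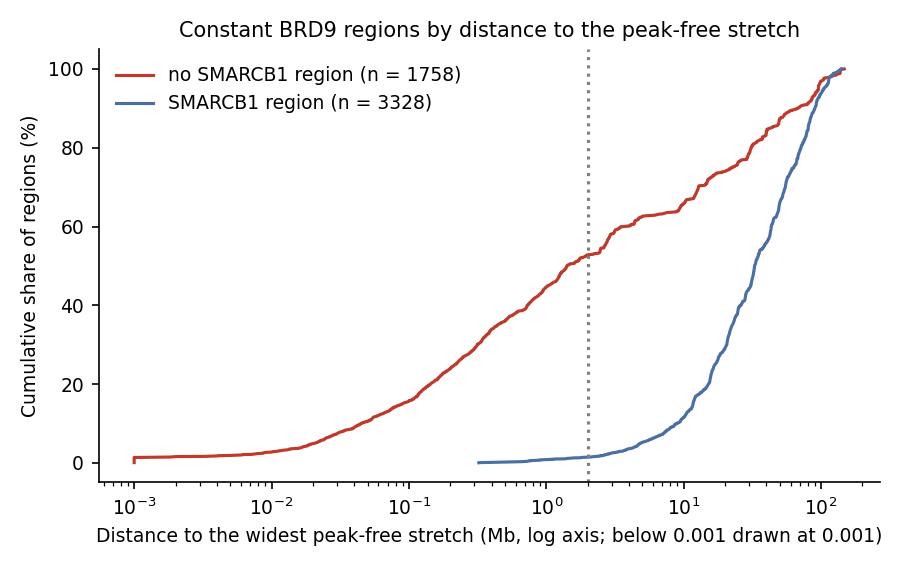
Cumulative share of constant BRD9 regions (%) by distance to the widest peak-free stretch of their chromosome (Mb, log axis), for the 1758 regions without a SMARCB1 region (red) and the 3328 with one (blue). The dotted line marks 2 Mb, within which lay 52.8% of the red and 1.41% of the blue curve.

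Position was the plainest feature that the rule did not set directly. The widest stretch of each chromosome without a peak in any of the 8 lists was taken as a marker of the unsequenced centromeric block (on chromosomes 13, 14, 15, 21 and 22 it starts at the chromosome's first base). Within 2 Mb of that stretch lay 928 of the 1758 regions without SMARCB1 (52.8%), against 47 of the 3328 with SMARCB1 (1.41%). The same zone made up 2.87% of the chromosomes' span outside the stretches (82.0 of 2855 Mb). It held 7.16% of all merged BRD9 regions, 10.8% of the 71224 merged BRD9 regions without SMARCB1, and 1.62% of SMARCB1 regions. Among regions called in the 3 lists of 1 group only and lacking SMARCB1, the zone held 77 of 857 lost after SMARCB1 induction (8.98%) and 13 of 188 gained (6.91%). The plot of distance to the stretch shows the separation over the whole range. The median distance was 1.42 Mb for regions without SMARCB1 and 32.8 Mb for those with it. Within 2 Mb of a chromosome end lay 150 members (8.53%) against 80 of the regions with SMARCB1 (2.40%). SMARCB1 peaks near the stretches were called over a control of 0.496 and 0.494 RPKM, close to the 0.461 and 0.455 RPKM of peaks elsewhere in the 2 lists. This control is not the one of the BRD9 lists. It was measured only where a SMARCB1 peak was called, so it cannot show whether a high control prevented calls elsewhere in the zone.

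**Figure D2:**
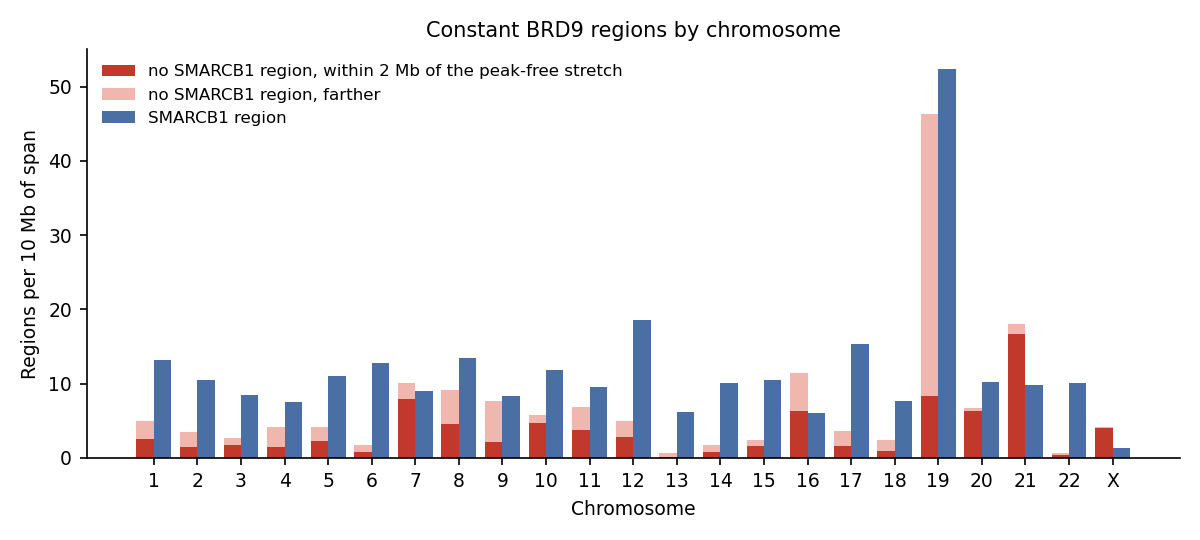
Constant BRD9 regions per 10 Mb of chromosome span, for chromosomes 1 to 22 and X. Red bars are regions without a SMARCB1 region, dark within 2 Mb of the widest peak-free stretch and pale farther away, and blue bars are regions with one. Chromosome 19 stands highest in both kinds, at 46.3 and 52.4 per 10 Mb.

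Chromosome 19 held 274 of the 1758 regions without SMARCB1 (15.6%), or 46.3 per 10 Mb. It was rich in the regions with SMARCB1 too, at 52.4 per 10 Mb (310 regions, 9.31%). In contrast to the set as a whole, 225 of its 274 members lay farther than 2 Mb from the centromeric stretch, and their control density was low, with a median of 0.204 RPKM. Chromosome 19 is known for long clusters of zinc-finger genes, but no gene annotation of the files' build was used here, so members were not assigned to genes. Chromosome 21 followed with 18.1 members per 10 Mb against 9.77 regions with SMARCB1, and chromosome 16 with 11.4 against 6.09. Of the members on chromosome 21, 80 of 87 lay within 2 Mb of the stretch, as did 127 of 160 on chromosome 7, 40 of 42 on chromosome 20 and 62 of 64 on X. X carried 75.3% of its constant regions without SMARCB1 (64 of 85), chromosome 16 carried 65.2% and chromosome 21 carried 64.9%. On chromosome 22 the share was 5.45%, with 3 regions without SMARCB1 and 52 with it.

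Members lay close together. Another member was found within 50 kb for 1420 of 1758 (80.8%, 95% Wilson interval 78.9 to 82.5%, which covers counting error only), and the median distance to the nearest was 1675 bp. Among constant regions with SMARCB1, 67.8% had another of their own kind within 50 kb, at a median distance of 14250 bp, although they are more numerous. Joining members with gaps of at most 50 kb gave 535 runs, of which 338 held a single member. A further 95 runs of 5 or more members contained 1155 of the 1758. When BRD9 peaks within 500 bp of each other were merged, members numbered 1390, among 4650 constant regions. Neighbouring members are therefore not all separate sites, and the distances and runs given here were not recomputed with that merging. Chromosome 19 was no exception, with 231 of its 274 members (84.3%) within 50 kb of another.

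The longest run lay on X from 61681976 to 61919414 and started at the edge of the peak-free stretch. It held 46 members over 237 kb. They were covered over 142, 107 and 133 kb in the GFP-induced libraries and 130, 111 and 109 kb in the SMARCB1-induced ones. Their summed density was 12.2, 10.05 and 11.6 RPKM against 9.59, 10.3 and 9.22 RPKM. GFP replicate 2 had the lowest width of all 6 and a density among those of the SMARCB1-induced libraries. The second run, on chromosome 8 from 43434076 to 43838927, held 35 members, which covered 227, 97.5 and 203 kb after GFP induction and 164, 93.7 and 94.0 kb after SMARCB1 induction. Here the covered width in SMARCB1-induced replicates 2 and 3 was close to that in GFP replicate 2. Density had another order, 8.96, 12.7 and 9.16 RPKM after GFP induction and 8.41, 12.7 and 10.6 RPKM after SMARCB1 induction, so the groups overlapped. The third run, on chromosome 3 from 90320629 to 90504335, held 31 members with 93.7, 50.8 and 82.5 kb against 82.4, 56.8 and 57.6 kb. All 3 runs touched the peak-free stretch.

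The control library gives the background measured in the same intervals. Spread evenly over the chromosomes it would give 0.330 RPKM. At the regions without SMARCB1 the mean control density had a median of 0.454 RPKM (quartiles 0.235 and 0.859), and 1114 of 1758 (63.4%) were above the even level. At those with SMARCB1 the median was 1.08 RPKM and 96.5% were above it. The set without SMARCB1 therefore had the lower control in the middle of its range, but the longer upper tail. More than 10 times the even level was reached by 99 of its members (5.63%) against 19 of the regions with SMARCB1 (0.571%). The ratio of sample to control density (with 1 read added to the control) had medians of 10.2, 6.88 and 9.51 after GFP induction and 7.82, 6.84 and 6.10 after SMARCB1 induction. At regions with SMARCB1 it was between 3.73 and 4.92 in every list. Every BRD9 peak was called over this control, so these ratios are partly set by the calling. Across members, mean BRD9 density and mean control density had a Spearman correlation of 0.695 (n = 1758 regions, which share the 6 libraries and the 1 control, so it is a description).

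The extremes show how different single members were. Chromosome 2 from 33141153 to 33141861 had the highest control, 34.7 RPKM, under a BRD9 density of 57.3, 61.5 and 58.0 RPKM after GFP induction and 54.4, 67.4 and 49.0 RPKM after SMARCB1 induction. Chromosome 11 from 51590201 to 51591470 followed with a control of 30.5 RPKM and BRD9 densities between 55.3 and 70.8 RPKM. Chromosome 1 from 564376 to 566867 had a control mean of 25.8 RPKM and BRD9 densities between 26.0 and 47.1 RPKM. There BRD9 was below the control of the same intervals in GFP replicate 1, at 26.0 against 26.5 RPKM. It was also below in SMARCB1-induced replicate 1, at 26.2 against 31.4 RPKM. BRD9 was above the control in replicates 2 and 3 of both groups. The margin was widest in GFP replicate 2, at 47.1 against 20.7 RPKM, and narrowest in SMARCB1-induced replicate 3, at 26.1 against 25.1 RPKM. At the other end, chromosome 1 from 247147051 to 247149476 had no control read in any of the 6 lists' intervals, where 3 reads would be 0.0789 RPKM. Its BRD9 density was 3.45, 3.06 and 3.91 RPKM after GFP induction and 3.02, 2.68 and 2.56 RPKM after SMARCB1 induction. It was covered over 2425, 2400 and 1830 bp against 1281, 1031 and 900 bp. The groups did not overlap in either measure, but neither passed the test (limma for width, log2 difference -1.05, SE 0.22, adjusted p = 0.055). Chromosome 4 from 123953 to 124776 and chromosome 16 from 3371595 to 3373051 also had no control read, with BRD9 densities of 2.97 to 6.92 RPKM and 2.85 to 3.68 RPKM.

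Called SMARCB1 regions were mostly far away. The nearest SMARCB1 region was at a median of 165 kb (quartiles 26.1 and 753 kb, at most 3.46 Mb), and 999 of 1758 members (56.8%) were more than 100 kb from one. For lost and gained BRD9 regions without SMARCB1 the median was 12.8 and 10.2 kb. Only 31 members had a SMARCB1 region within 1 kb, and 160 overlapped a SMARCB1 peak that 1 of the 2 SMARCB1 lists held. Of the members named by coordinates here, 6 are among those 160: the one on chromosome 2, the one on chromosome 22, and those that start at 161419451 on chromosome 1, 123953 on chromosome 4, 58687901 on chromosome 8 and 10697826 on chromosome 21. The members nearest to a SMARCB1 region were chromosome 10 from 39075276 to 39079771, 100 bp from a SMARCB1 region and 0.0753 Mb from the peak-free stretch, and chromosome 22 from 39715276 to 39716575, at 200 bp. The first had 7.99, 9.30 and 7.50 RPKM after GFP induction and 6.49, 6.80 and 7.01 RPKM after SMARCB1 induction. On the far side of the rule, the constant region with the smallest SMARCB1 overlap, 56 bp, was chromosome 19 from 14202776 to 14206576. It was covered over 3650, 1384 and 2900 bp against 1162, 1205 and 910 bp, at 3.53, 3.64 and 3.98 RPKM against 3.26, 3.03 and 3.00 RPKM.

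**Figure D3:**
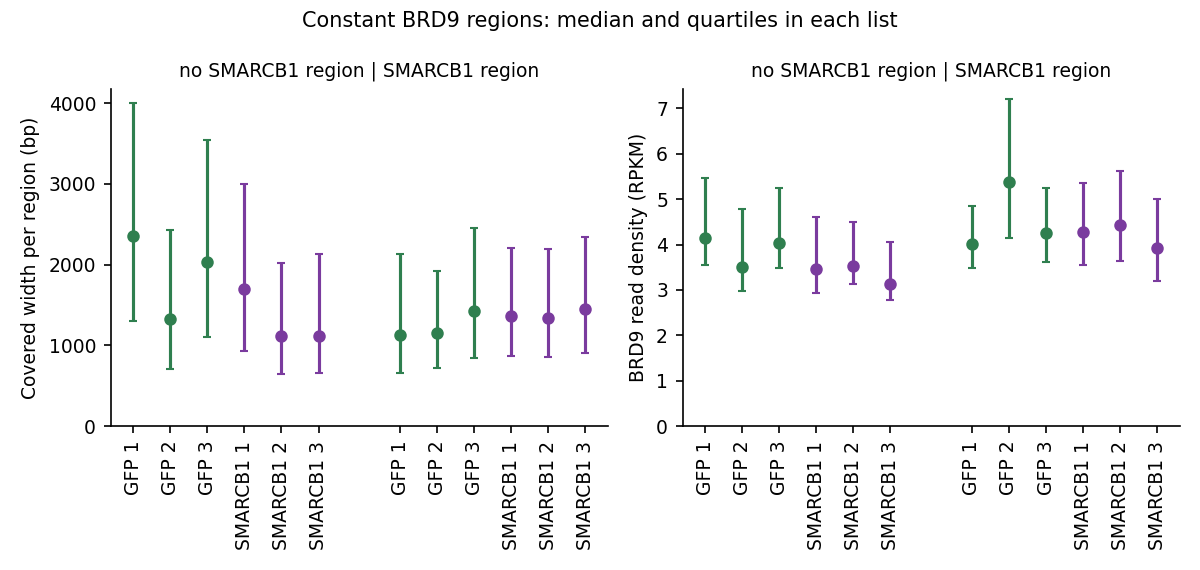
Covered width per region (bp, left) and BRD9 read density (RPKM, right) in each of the 6 lists, GFP-induced in green and SMARCB1-induced in purple. Points are medians and bars quartiles over the 1758 constant regions without a SMARCB1 region (left of each panel) and the 3328 with one (right). Without SMARCB1, median widths were 1325 to 2349 bp after GFP induction and 1112.5 to 1700 bp after SMARCB1 induction.

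The comparison of SMARCB1-induced with GFP-induced cells asks whether BRD9 at these sites moves when SMARCB1 returns. A member's covered width in the GFP-induced libraries had a median of 2349, 1325 and 2031 bp, and in the SMARCB1-induced ones 1700, 1121 and 1112.5 bp. GFP replicates 1 and 3 were above every SMARCB1-induced library, and GFP replicate 2 was below SMARCB1-induced replicate 1. The means were 1902 ± 524 bp (SD, n = 3) and 1311 ± 337 bp (SD, n = 3), a log2 difference of -0.53 in the list medians. It was larger than the SD of either group on that scale (0.43 and 0.35) and did not pass the test (two-sided exact permutation test of 3 lists against 3, p = 0.2, adjusted p = 0.25 over 5 such tests). The smallest p that this design allows is 0.1. Without GFP replicate 2 the log2 difference was -0.77, and without GFP replicate 1 it was -0.35.

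Density also placed GFP replicates 1 and 3 above every SMARCB1-induced library. Its median was 4.15, 3.50 and 4.04 RPKM after GFP induction and 3.46, 3.53 and 3.14 RPKM after SMARCB1 induction. The means were 3.90 ± 0.347 and 3.38 ± 0.208 RPKM (SD, n = 3 each), a log2 difference of -0.20 (p = 0.2 and, over the same family, adjusted p = 0.25 by the exact permutation test). The log2 difference was -0.28 when GFP replicate 2 was left out. It was -0.16 without GFP replicate 1 and -0.15 without SMARCB1-induced replicate 3. Together, width and density set the share of each library's reads that fell in the 1758 regions, which was 4.46, 2.96 and 3.95% after GFP induction and 3.15, 2.69 and 2.39% after SMARCB1 induction. The log2 difference of that share was -0.45 (exact permutation test, p = 0.2, adjusted p = 0.25), and -0.62 without GFP replicate 2. Each of these 3 differences was larger than the SD of either group, and in each the groups overlapped through GFP replicate 2.

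Constant regions with SMARCB1 had the opposite order of group means in width, 1232 ± 164 bp after GFP induction and 1381 ± 60.8 bp after SMARCB1 induction (SD, n = 3 each). Their median covered width was 1127, 1148.5 and 1421.5 bp after GFP induction and 1359.5, 1334.5 and 1450 bp after SMARCB1 induction. The difference between the 2 kinds of region, taken as the log2 ratio of their medians within each list, was -0.70 for width (exact permutation test, p = 0.2, adjusted p = 0.25) and -0.10 for density (p = 0.7, adjusted p = 0.7). The width value was larger than the SD of either group (0.43 and 0.37), and the density value was smaller than the SD of the GFP lists (0.35). The width value was -0.89 without GFP replicate 2 and -0.46 without GFP replicate 1. The density difference between the kinds changed sign with the GFP list that was left out. It was 0.026 without GFP replicate 1 and -0.30 without GFP replicate 2.

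**Figure D4:**
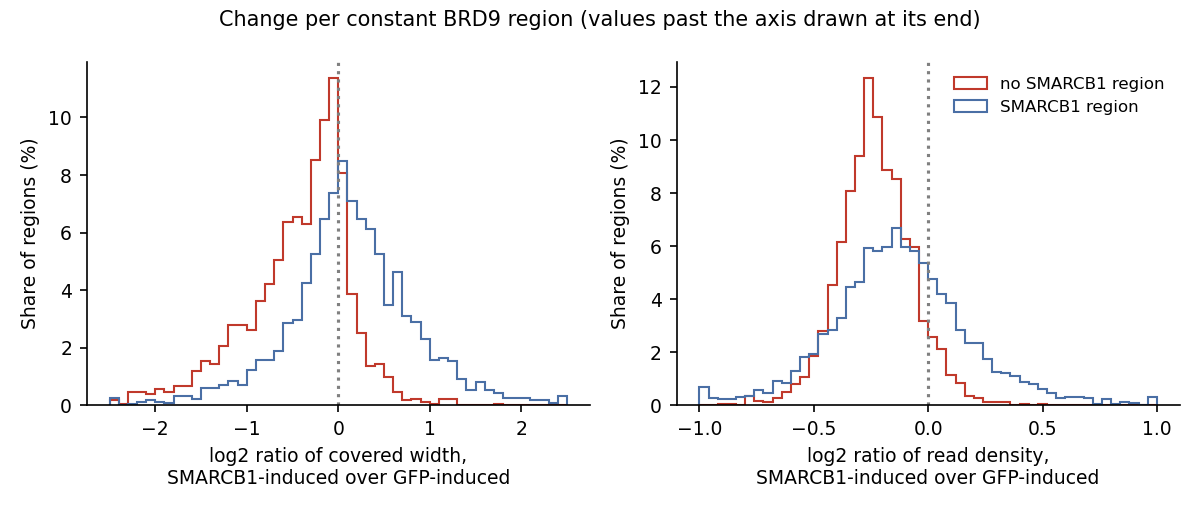
Share of regions (%) by log2 ratio of SMARCB1-induced over GFP-induced cells, for covered width (left, limma) and read density (right, edgeR), in constant BRD9 regions without (red) and with (blue) a SMARCB1 region. The dotted line is no difference. For width, 80.3% of the red and 40.6% of the blue regions lay below it.

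Region by region, the fits used all 5086 constant regions. Median log2 differences in width were -0.31 for members (1411 of 1758 below 0, 80.3%), 0.11 for regions with SMARCB1 (40.6% below 0) and -0.046 over all. In density the medians were -0.24 (1622 of 1758 below 0, 92.3%), -0.13 (69.5% below 0) and -0.18. The 1758 values share the same 6 libraries and are not replicates. Single libraries moved these medians. For members, the width median was -0.52 without GFP replicate 2 and -0.17 without GFP replicate 1, and the density median ran from -0.28 to -0.18 over the 6 fits that leave out 1 list. For regions with SMARCB1, the width median ran from 0.057 without GFP replicate 1 to 0.20 without GFP replicate 3, and the density median from -0.20 without GFP replicate 1 to -0.0049 without GFP replicate 2. Scaling the libraries by TMM factors, which assume that most constant regions keep their density, moved the median over all regions from -0.18 to -0.037. Relative to the median over all constant regions, members were at -0.056 with library size and at -0.063 with TMM factors.

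Few members passed the tests. With edgeR's quasi-likelihood test and Benjamini-Hochberg adjustment over all 5086 regions, density was lower after SMARCB1 induction in 1 member, against 59 of 5086 regions (1.16%). Density was higher in 0 members, against 24 regions (0.472%), and 0 members were higher at an unadjusted p of 0.05 or with DESeq2. With TMM factors, edgeR again called density lower in 1 member against 59 regions (1.16%), and higher in 0 members against 92 regions (1.81%). At an unadjusted p of 0.05 the members lower in density then numbered 54 in place of 235, and those higher 6 in place of 0. With limma, covered width was lower in 25 members (1.42%), against 96 regions in all (1.89%), and higher in 1 member against 127 regions (2.5%). The share of members with lower width was thus below the background, and the share with higher width was 0.0569% of members against 3.79% of regions with SMARCB1. Counts by groups that did not overlap stood otherwise, with the members' shares of lower values slightly above the background. Density was lower in all 3 SMARCB1-induced lists than in any GFP list in 365 members (20.8%, background 18.1%) and higher in 4 (background 4.13%). Width was lower in that sense in 265 members (15.1%, background 13.2%) and higher in 20 (1.14%, background 14.6%).

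These counts hung on single libraries. Without GFP replicate 2, edgeR called density lower in 246 members (14.0%), against 397 of 5086 regions (7.81%), and limma called width lower in 51 (2.90%), against 105 regions (2.06%). Without GFP replicate 1 density was lower in 17 members against 200 regions (3.93%), and width in 0 against 1 region (0.0197%). Without GFP replicate 3 the counts were 2 members against 44 regions (0.865%) for density and 3 against 20 (0.393%) for width. Leaving out SMARCB1-induced replicates 1, 2 and 3 gave 0 members for density each time, against 0, 0 and 1 region (0.0197%). For width it gave 13 members against 31 regions (0.61%) without replicate 1, and 0 members and 0 regions without replicate 2 or 3. Where these counts were 0, members lower at an unadjusted p of 0.05 still numbered 62 to 148 for density (edgeR) and 119 to 155 for width (limma), against 288 to 528 and 387 to 410 of all 5086 regions.

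The member with lower density was chromosome 8 from 117080351 to 117083501, 70.2 Mb from the peak-free stretch and 30775 bp from the nearest SMARCB1 region. Its density was 3.76, 4.57 and 4.23 RPKM after GFP induction and 2.43, 2.65 and 2.23 RPKM after SMARCB1 induction, so the groups lay apart (edgeR, log2 difference -0.77, SE 0.17, adjusted p = 0.033). Its width was 2075, 759 and 1854 bp against 2513, 1713 and 1900 bp, and the 83, 42 and 80 reads of the GFP libraries stood against 74, 46 and 59. In width and in raw reads the groups thus overlapped, with GFP replicate 2 the lowest in both. The covered width is the divisor of the density.

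The 5 members with the lowest p for width were narrow sites after SMARCB1 induction. Chromosome 19 from 36935616 to 36940858 was covered over 4962, 2634 and 4127 bp in the GFP-induced libraries and 853, 673 and 804 bp in the SMARCB1-induced ones, so that all 3 libraries of each group lay apart. Its width was 4.89-fold lower (limma, log2 difference -2.29, SE 0.28, adjusted p = 0.018). The reads in it numbered 222, 87 and 163 against 38, 26 and 26. The density of the covered part was similar, 4.21, 2.73 and 3.87 RPKM against 3.67, 3.81 and 2.33 RPKM. Density counts only bases under a list's own called peaks, so it does not describe the part that was no longer covered.

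A second region of the same chromosome, from 52622226 to 52626251, was covered over 3529, 2918 and 2900 bp against 850, 712 and 476 bp, a 4.70-fold lower width (limma, adjusted p = 0.017). Chromosome 8 from 57865439 to 57867226 fell from 1365, 1412 and 1050 bp to 375, 330 and 300 bp (3.79-fold, limma, adjusted p = 0.012). On the same chromosome, from 58687901 to 58692001, the width fell from 3500, 2454 and 2612 bp to 726, 948 and 593 bp (log2 difference -1.93). Chromosome 7 from 62340626 to 62343126 fell from 2000, 1413 and 1617 bp to 575, 384 and 408 bp (3.70-fold). It was the only one of the 5 within 2 Mb of the peak-free stretch, at 1.29 Mb. All 5 had a control mean of 0.153 to 0.397 RPKM, below the median of the set.

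The single member that was wider after SMARCB1 induction was chromosome 1 from 161419451 to 161427026. It was covered over 2219, 3309 and 3282 bp in GFP-induced and 7178, 6512 and 5920 bp in SMARCB1-induced libraries, a 2.26-fold higher width (limma, log2 difference 1.17, SE 0.23, adjusted p = 0.046). Its density stayed between 3.50 and 4.36 RPKM. The control had 0.985 RPKM there, and the nearest SMARCB1 region held by both lists was 7275 bp away, while a SMARCB1 peak of 1 list overlapped the member.

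**Figure D5:**
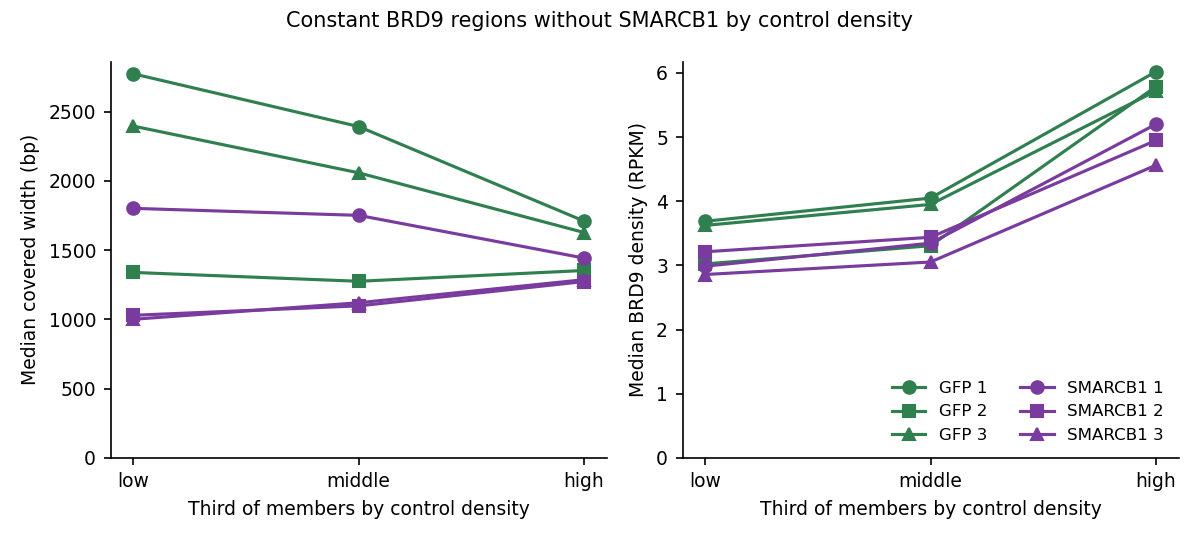
Median covered width (bp, left) and BRD9 density (RPKM, right) in each list for members grouped by control density into 3 sets of 586, GFP-induced in green and SMARCB1-induced in purple. In the set with the low control the widths of GFP replicates 1 and 3 are far above the others, and in the set with the high control all 3 GFP densities are above the SMARCB1-induced ones.

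The size of the group difference in width was smaller where control density was higher. Members were sorted by control density into 3 sets of 586 with median controls of 0.184, 0.454 and 1.26 RPKM. These sets were drawn with the values in view, so they are described without a test. Control density has each list's covered width as its divisor, so the sorting is not independent of the width compared. In the set with the lowest control the median width was 2772.5, 1338.5 and 2395 bp after GFP induction and 1801, 1029 and 1000 bp after SMARCB1 induction, a log2 difference of -0.75. In the middle set the log2 difference was -0.51. In the set with the highest control the widths were 1709, 1352.5 and 1626.5 bp against 1442, 1272.5 and 1286 bp, a log2 difference of -0.22. GFP replicate 2 lay among the SMARCB1-induced lists in all 3 sets. From low to high control, the sets held 193, 63 and 18 members of chromosome 19, and 39.2, 58.4 and 60.8% lay near the stretch. The log2 difference in width was -0.70 on chromosome 19 and -0.47 on other chromosomes. Control density and chromosome were not separated here.

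In density the group difference was largest, among the 3 sets, where the control was highest. In the set with the highest control all 3 GFP-induced libraries, at 6.02, 5.79 and 5.72 RPKM, were above the SMARCB1-induced ones at 5.20, 4.95 and 4.56 RPKM, a log2 difference of -0.25. In the low and middle sets the groups overlapped, with log2 differences of -0.19 and -0.20. The set with the highest control held 58.9 to 72.5% of the reads that fell in members. In the 99 members above 10 times the even control level the medians were 22.4, 22.5 and 21.6 RPKM against 19.2, 18.96 and 17.3 RPKM, and there too the groups did not overlap. The control library is the same in both groups, and whether its content has a part in these differences was not tested.

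Members near and far from the centromeric stretch had similar differences. Within 2 Mb of the peak-free stretch the log2 difference was -0.44 in width and -0.20 in density (928 members), and farther away it was -0.57 and -0.21 (830 members). The 225 distant members of chromosome 19 had median widths of 2625, 1467 and 2126 bp after GFP induction and 1796, 983 and 1000 bp after SMARCB1 induction, a log2 difference of -0.74. The 605 distant members of other chromosomes had 1826, 1131 and 1705 bp against 1351, 966 and 972 bp, at -0.49. In density, those 605 had 3.96, 3.52 and 4.02 RPKM against 3.36, 3.46 and 3.08 RPKM, so that the groups lay apart by a narrow margin.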

How the data were processed

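Each of the 8 deposited files used is a peak list of 1 sample. Per the file headers, the authors deposited the raw counts of sample reads and control reads at each peak. The authors' RPKM values, per the file headers, are the same counts per kilobase of peak and M reads, and peaks were ranked by the deposited −log10 of their false discovery rate. The submitters' processing notes name BWA 0.7.12-r1039, SAMtools, bedtools, DiffBind and edgeR without their roles, and builds including hg19. The peak caller is not given in the sources used here. The BRD9 lists name no build, and their chromosome ends fit hg19. SMARCB1 after GFP induction and the IgG sample were not analysed here, nor were gene annotation and sequence of hg19.

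The library size was obtained by dividing counts by RPKM and peak length. Width is the number of bases covered by a list's own peaks in a region, and density is the summed reads over that width and the library size. List medians were compared by two-sided exact permutation tests. Per region, edgeR (quasi-likelihood, offset of library size and width) and limma (log2 covered bases, lmFit and eBayes) were fitted on all 5086 constant regions with Benjamini-Hochberg adjustment at 0.05, without a replicate block. Regions were named by rule: the 5 best by mean rank, the 5 widest, up to 5 per direction past the threshold by lowest p, the 3 longest runs, the 3 with highest and lowest control, and the 3 nearest to or overlapping SMARCB1 least, of which some are only summarised. Members, lists and tests were chosen with earlier results of these data known. Code was tested on simulated data. Alternatives were other tools, filters, scaling, SMARCB1 references, merging, left-out lists and a replicate block. Python 3.11.15, numpy 2.4.6, pandas 2.3.3, scipy 1.17.1, matplotlib 3.10.9, R 4.3.3, edgeR 4.0.16, limma 3.58.1 and DESeq2 1.42.0 were used.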

Additional observations from a re-analysis of the deposited data

How the results depend on the processing

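The 5 comparisons of list medians kept their direction in 69 of 70 alternatives, of which 15 were chosen after seeing the data (members off chromosome 19, far from the peak-free stretch, or without a raised control). Their ranges were -0.77 to -0.35 for width, -0.28 to -0.15 for density, -0.87 to -0.33 for the share of reads, -0.91 to -0.46 for the difference in width between the kinds of region, and -0.30 to 0.026 for that in density, which reversed without GFP replicate 1 (0.026). The replicate block cannot change any of the 5 differences, and averaging log2 over members cannot change the share of reads. For these alternatives the agreement was fixed beforehand. Members numbered 1110 when only the higher-scoring peaks of each list were used, with a median control of 0.574 RPKM in place of 0.449. The share within a set distance of another member was 70.3% at 10 kb, 85.7% at 200 kb and 83.4% for members without a SMARCB1 peak of either replicate. Members with lower density numbered 4 with DESeq2 (822 members had no adjusted p), 3 with at least 20 reads in every list and 3 with limma on log2 RPKM, against 1.99%, 1.84% and 1.16% of all regions tested, and 0 to 246 when 1 list was left out. Members with fewer summed reads for their library size, a measure that joins width and density, numbered 92 (5.23%) in edgeR, against 342 of all regions (6.72%). Members with lower width numbered 0 to 51 when 1 list was left out. Wider members numbered 2 with at least 500 bp in every list (3.06% of all regions) and 0 to 2 when 1 list was left out. The cause of these shifts was not tested. Deviations of same-numbered lists (replicates 1, 2 and 3) correlated at 0.068, 0.034 and 0.029 in density and 0.33, 0.13 and -0.00022 in width. Whether the replicate numbers pair the lists is not settled by these values, which stand without those of different-numbered lists. With the number as a replicate block, 28 members (1.59%) had lower density by edgeR, against 195 of all regions (3.83%). By limma, 0 members had lower or higher width (337 and 13 at an unadjusted p of 0.05). The list-level differences stayed at -0.53, -0.20, -0.45, -0.70 and -0.10, as a block cannot move them. Depth limits precision, since the median member held 42 to 108 reads, depending on the list.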

Other observations

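The BRD9 lists also held peaks on sequences other than chromosomes 1 to 22 and X, which entered no comparison. These numbered 1975, 2140 and 1844 in the GFP-induced lists of 45673, 35252 and 38825 peaks, and 2049, 1822 and 1986 in the SMARCB1-induced lists of 46448, 39949 and 42285 peaks. The SMARCB1 lists, with 133297 and 161710 peaks, held 170 and 210 such peaks.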
